A study of Mus musculus with 6 samples.

Results

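Iron uptake, storage, export and sensing were followed through 10 genes chosen by name, out of 26096 in the gene table: Tfrc, Slc11a2, Slc11a1 and Lcn2 for uptake, Fth1, Ftl1 and Ncoa4 for storage, Slc40a1 for export, and Ireb2 and Aco1 for sensing. The RNA came from wild-type mouse microglia, which are brain-resident macrophages, given medium in which bone marrow-derived macrophages (BMDMs) had been kept. In 3 libraries the medium came from normal BMDMs (C CM, called control here) and in 3 it came from BMDMs in ferroptosis, an iron-dependent death by lipid peroxidation (FeM CM, called ferroptotic here). The sources used here do not give how ferroptosis was induced, how long the microglia were exposed or where they were obtained. The labels also do not say that the samples were separate cultures. The p-values therefore weigh group differences only against the variation among these samples, and that variation may be technical.

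Cells take up transferrin-bound iron through the transferrin receptor, move it out of endosomes and phagosomes through proton-coupled metal transporters, store it in ferritin shells built of heavy and light chains, and export it through ferroportin. The iron regulatory proteins IRP1 (encoded by Aco1) and IRP2 (encoded by Ireb2) sense the supply. When iron is scarce they bind hairpins called iron-responsive elements in messenger RNAs: binding near the 5′ end blocks translation of ferritin and ferroportin, and binding in the 3′ untranslated region (UTR) stabilises the transferrin receptor mRNA. Brain macrophages are known to hold and recycle iron from debris, and inflammatory signals are known to alter several of these genes.

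Iron-responsive elements found in the members are shown because they are the stretches through which the sensors act on storage, export and uptake mRNAs. They were found in GENCODE M21 transcripts (GRCm38) by a pattern made of an unpaired C, 5 stem bases, the 6-base loop CAGTG followed by A, C or T, and 5 bases that pair with the stem (G-T pairs allowed). Each is given 5′ to 3′ over 30 bases, with the unpaired C of the stem and the 6-base loop in capitals.
Fth1, 5′ UTR, exon 1, chr19:9982731-9982760, plus strand: tttcctgCttcaaCAGTGCttgaacggaac
Ftl1, 5′ UTR, exon 1, chr7:45459779-45459808, minus strand: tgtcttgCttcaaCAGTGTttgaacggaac
Slc40a1, 5′ UTR, exon 1, chr1:45925465-45925494, minus strand: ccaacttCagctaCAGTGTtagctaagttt
Tfrc, 3′ UTR, exon 19, chr16:32631218-32631247, plus strand: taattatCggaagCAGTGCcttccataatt
Tfrc, 3′ UTR, exon 19, chr16:32631597-32631626, plus strand: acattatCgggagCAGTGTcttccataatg
Tfrc, 3′ UTR, exon 19, chr16:32631662-32631691, plus strand: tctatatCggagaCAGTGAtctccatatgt
Tfrc, 3′ UTR, exon 19, chr16:32631709-32631738, plus strand: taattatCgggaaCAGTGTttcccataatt

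The Fth1 and Ftl1 elements differed at 3 of 30 bases, while the Slc40a1 element differed from that of Fth1 at 17 of 30. Any pair of the 4 Tfrc elements found differed at 5 to 12 bases. An element with another loop would be missed by this pattern, so Tfrc may hold more. Of 21901 protein-coding genes searched in the same way, 23 (0.105%) had a match in a 5′ UTR and 100 (0.457%) in a 3′ UTR. The other 6 members had no match in a UTR, which says only that these letters were not found there. Slc11a2 mRNA is known to have an isoform with such an element, and this pattern did not find it. A match is a description of the sequence, and binding to it was not measured.

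Reads assigned to genes, recovered from the deposited log2 values, numbered 39624311 to 50557794 per library, and the control libraries were the deeper ones. Every member passed the filter on low values (10 normalized counts in at least 3 libraries), as did 15597 genes in all, and no member had fewer than 467 reads in any library. Macrophage genes were abundant, with Lyz2 at 207348 ± 6250 normalized counts (SD, n = 3) under control medium and 229156 ± 3639 under ferroptotic medium, and Csf1r at 76237 ± 1842 and 58594 ± 778. Of the genes that set microglia apart from other macrophages, P2ry12 had 3 reads and Tmem119 had 21 reads in all 6 libraries together, and Sall1 is not in the table used here. The label of microglia thus rests on the submitters' word and on general macrophage genes. Because RNA was pooled from many cells, fewer cells that make an mRNA and less of it in each cell cannot be told apart in any result given here.

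Iron genes shifted in both directions under ferroptotic medium. Lcn2 and the exporter gene Slc40a1 rose most, by 9.80-fold and 4.19-fold. The metal transporters Slc11a1 and Slc11a2 rose by 1.69-fold and 1.40-fold, and the ferritin light chain gene Ftl1 rose by 1.23-fold. Tfrc fell by 18.7% and the sensor gene Ireb2 fell by 13.7%. The other sensor gene, Aco1, fell by 10.8%, a call that was lost in 11 of 15 alternative settings. Fth1 and Ncoa4 did not pass the test.

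Of the 10 members, 8 passed (limma on the log2 values, Benjamini-Hochberg over all genes tested, threshold 0.05), where 42.5% of all genes tested passed. They split into 5 higher, where 19.7% of all genes were called higher, and 3 lower, Aco1 included, where 22.8% were called lower. A rise of at least 2-fold was called for 2 members, Lcn2 and Slc40a1, against a share of 7.65% of all genes called with at least a 2-fold change. The values of the groups did not overlap for any of the 10 members, while the same held for 53.7% of all genes. The median log2 difference of the members was 0.39, against -0.0050 for all genes tested. By the authors' deposited table, a false discovery rate under 0.05 was given to 9 of the 10 members, against 44.6% of the genes tested here. The one gene above it in that table was Ncoa4 (0.182), and the authors' deposited rate for Fth1 was 0.0395.

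**Figure D1:**
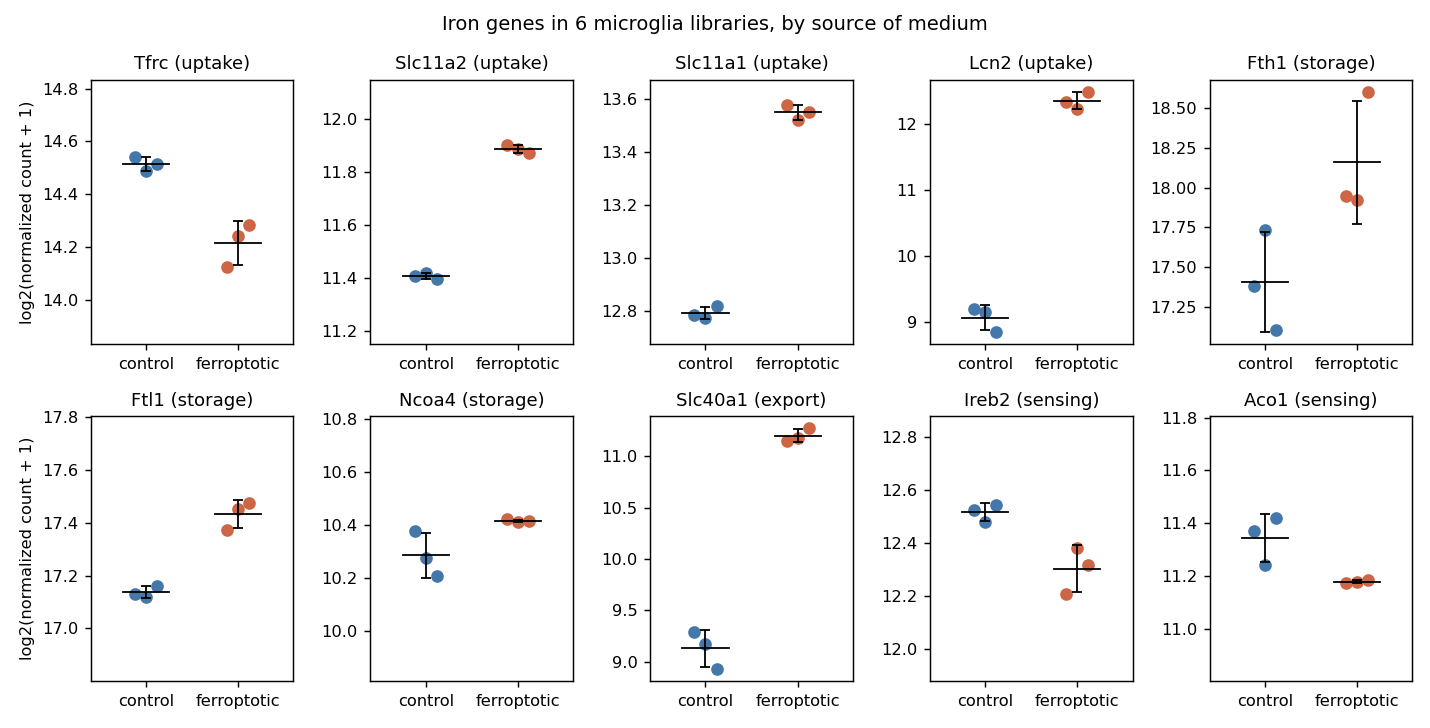
Log2(normalized count + 1) of each iron gene in the 6 libraries, with control medium in blue and ferroptotic medium in orange; each panel has its own vertical axis, the line is the group mean and the bars are 1 SD (n = 3). The groups are apart in every panel, and the points of Fth1 are spread most widely within each group.

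**Figure D2:**
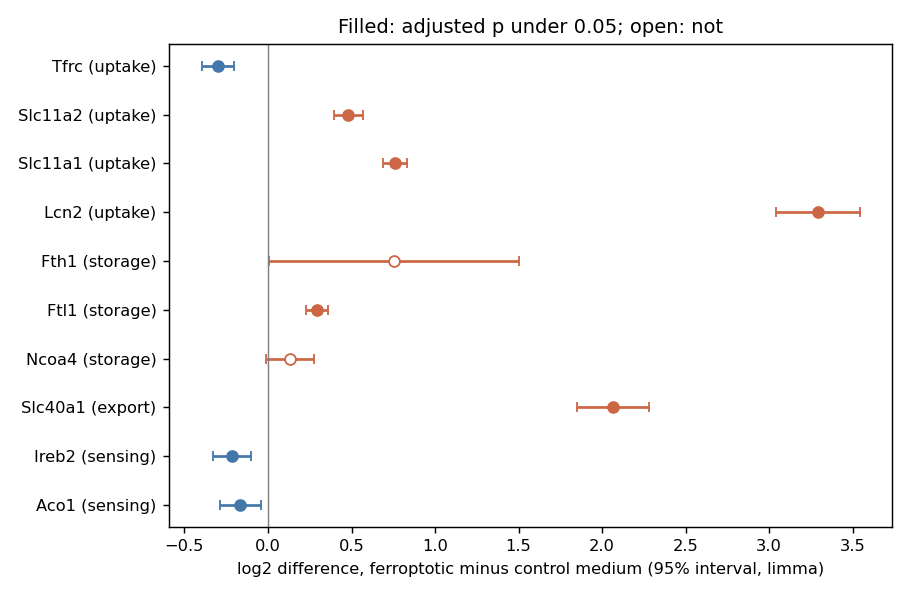
Log2 difference of each iron gene, ferroptotic minus control medium, with limma's 95% interval on the horizontal axis; filled circles passed at an adjusted p under 0.05 and open circles did not. Lcn2 (3.29) and Slc40a1 (2.07) lie far to the right, and the interval of Fth1 reaches from 0.00 to 1.50.

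Uptake genes moved in different directions. Tfrc (ENSMUSG00000022797), which encodes the transferrin receptor, stood at 23867, 22967 and 23378.5 normalized counts under control medium and at 17847.5, 19362 and 19963 under ferroptotic medium. All 3 ferroptotic libraries lay below all 3 control libraries. The mean went from 23404 ± 451 to 19058 ± 1090 (SD, n = 3 each), a log2 difference of -0.30 (SE 0.04, 95% interval -0.40 to -0.20, limma adjusted p = 0.000535). Its mRNA is the one whose 3′ UTR held 4 matches to the pattern, printed above.

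Slc11a2 (ENSMUSG00000023030) encodes DMT1, the transporter that carries ferrous iron out of endosomes. It measured 2718, 2738 and 2694 normalized counts under control medium and 3832, 3789 and 3753 under ferroptotic medium. The replicates of each group were close together and the groups were well apart. The log2 difference was 0.48 (SE 0.04, 95% interval 0.39 to 0.57, limma adjusted p = 1.50e-05). An exon of Slc11a2 overlaps the gene model Gm5475 on the other strand, and the sources used here do not say whether counting used strand.

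Slc11a1 (ENSMUSG00000026177) encodes NRAMP1, the related transporter of macrophage phagosomes and late endosomes. Its normalized counts were 7060.2, 6990.4 and 7214 under control medium and 12228, 11759 and 12021 under ferroptotic medium. Every ferroptotic library exceeded every control library. The log2 difference was 0.76 (SE 0.03, 95% interval 0.69 to 0.83, limma adjusted p = 3.40e-07). The log2 gap between Slc11a1 and Slc11a2 within a library widened by 0.28, from 1.38 ± 0.03 to 1.66 ± 0.02 (SD, n = 3 each). The gaps did not overlap, and the exact two-sided permutation p was 0.1, the smallest that 3 against 3 libraries allow (0.2 adjusted over the 4 pairs of members compared).

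Lcn2 (ENSMUSG00000026822) encodes lipocalin 2, a secreted protein that binds iron-loaded siderophores and is known to be induced by inflammatory signals. Control libraries had 587, 565 and 457 normalized counts, and ferroptotic libraries had 5169, 4817 and 5754. The lowest ferroptotic library was far above the highest control library. The mean went from 536 ± 69.4 to 5247 ± 473 (SD, n = 3 each), a log2 difference of 3.29 (SE 0.11, 95% interval 3.04 to 3.54, limma adjusted p = 2.38e-07). This placed Lcn2 at rank 42 by size among the 3077 genes called higher. On the authors' FPKM scale, which takes gene length into account, Lcn2 measured 4.67, 4.48 and 3.60 under control medium and 40.7, 38.0 and 44.6 under ferroptotic medium.

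Neutrophils store the Lcn2 protein, so their markers were read beside it. Of 14 neutrophil markers, 9 are not in the table used here, Mpo had 7 reads and Elane had 3 reads in all libraries together, and Prtn3 had 40. The 2 that were tested both rose, S100a8 from 13.2 ± 3.46 to 144 ± 14.1 normalized counts (limma adjusted p = 1.30e-05) and Csf3r from 136 ± 9.87 to 303 ± 12.9 (limma adjusted p = 6.66e-05). Both are also made by stimulated macrophages. Of all genes tested, 19.7% were called higher, and a list with 2 tested genes can hardly be set against that share. The summed level of the list was 142 to 175 in control libraries and 435 to 481 in ferroptotic libraries, and its part in the Lcn2 result was not tested.

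By normalized count the 2 ferritin genes were the most abundant of the set. Ncoa4, the other storage gene, had means of 1249 under control medium and 1366 under ferroptotic medium. The ferritin light chain gene Ftl1 (ENSMUSG00000050708) measured 143467, 142451 and 146578 normalized counts under control medium and 169543, 179270 and 182165 under ferroptotic medium. The ferroptotic libraries were all above the control libraries. The log2 difference was 0.30 (SE 0.03, 95% interval 0.23 to 0.36, limma adjusted p = 5.76e-05). With quantile normalization the difference of Ftl1 was -0.033 and did not pass (limma adjusted p = 0.753). It was 0.32 with median centring and 0.31 with limma-voom and TMM scaling, and it passed with both.

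Reads of Ftl1 can be shared with close copies. Ftl1-ps1, a processed copy, went from 11699 ± 779 to 14391 ± 1079 normalized counts, and Ftl2-ps from 4192 ± 253 to 5224 ± 447. These log2 differences were 0.30 and 0.32 (SE 0.07 each; limma adjusted p = 0.00958 and 0.00704), near that of Ftl1. The sources used here do not say how reads that match several copies were assigned, so the Ftl1 count is uncertain to that extent. Exons of Ftl1 also overlap the gene models Gm10252, on the other strand, and Gm22133, on the same strand.

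The ferritin heavy chain gene Fth1 (ENSMUSG00000024661), whose protein has the ferroxidase site that loads iron, measured 170264, 217992 and 140861 normalized counts under control medium and 253267, 248592 and 398428 under ferroptotic medium. The groups did not overlap, but the highest library of each group exceeded its lowest by 1.55-fold and 1.60-fold. The log2 difference was 0.75 (SE 0.28, 95% interval 0.00 to 1.50), with a limma p of 0.0491 and a limma adjusted p of 0.0993. Fth1 therefore did not pass, although its mean difference was larger than that of Ftl1. Without ferroptotic replicate 3 the difference was 0.53, and without control replicate 2 it was 0.92.

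The spread of Fth1 between replicates was wide for so abundant an mRNA. Its within-group SD was 0.35 log2 units, where the median over the 7152 genes with a mean of at least 1000 normalized counts was 0.0642. Only 225 of these genes (3.15%) had a larger one. Fth1 had 143889 to 359741 reads per library.

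**Figure D3:**
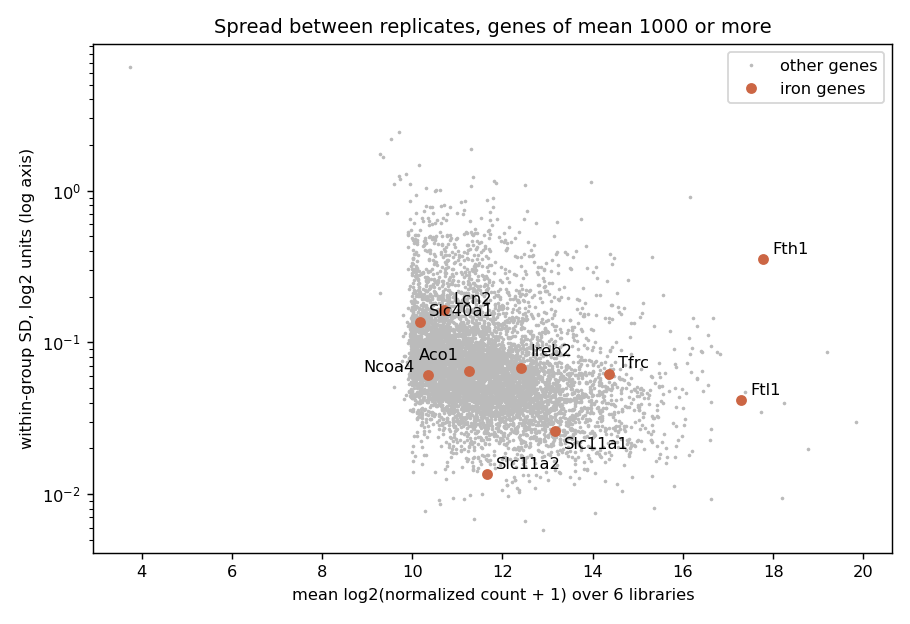
Within-group SD (log2 units, log axis) against the mean log2(normalized count + 1) over 6 libraries for the 7152 genes with a mean of at least 1000 normalized counts; iron genes are orange. Fth1 stands above the other genes of like abundance at 0.35, and Ftl1 lies low at 0.04.

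Taking both ferritin genes together, their reads made up 0.738%, 0.848% and 0.670% of assigned reads under control medium and 0.986%, 0.997% and 1.32% under ferroptotic medium. The lowest ferroptotic share was above the highest control share. The ratio of Fth1 to Ftl1 reads, which is not corrected for length, was 1.19, 1.53 and 0.961 in the control libraries. It was 1.49, 1.39 and 2.19 in the ferroptotic libraries, so the groups overlapped. On the log2 scale of normalized values the difference between Fth1 and Ftl1 went from 0.27 ± 0.34 to 0.73 ± 0.35 (SD, n = 3 each; exact two-sided permutation p = 0.3, 0.4 adjusted over 4 pairs), within the spread between replicates.

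Ncoa4 (ENSMUSG00000056234) encodes the receptor that delivers ferritin to the lysosome for breakdown. Its normalized counts were 1328, 1237 and 1181 under control medium and 1371, 1363 and 1364 under ferroptotic medium. The ferroptotic values were tightly grouped just above the highest control value. The log2 difference of 0.13 did not pass (SE 0.06, 95% interval -0.01 to 0.27, limma adjusted p = 0.126).

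Export is represented by Slc40a1 (ENSMUSG00000025993), which encodes ferroportin, the iron exporter of vertebrate cells. It measured 625, 576 and 488 normalized counts under control medium and 2264, 2316 and 2465 under ferroptotic medium. Each ferroptotic library was well above all control libraries. The mean went from 563 ± 69.6 to 2348 ± 105 (SD, n = 3 each), a log2 difference of 2.07 (SE 0.09, 95% interval 1.85 to 2.28, limma adjusted p = 5.30e-07), which is rank 150 of the 3077 genes called higher. The authors' FPKM values of Slc40a1 were 1.44, 1.33 and 1.11 under control medium and 5.18, 5.30 and 5.55 under ferroptotic medium. On that per-length scale its level was below that of Lcn2 in each library.

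Slc40a1 rose while Tfrc fell, so their values came closer together. The log2 difference between Slc40a1 and Tfrc within a library went from -5.38 ± 0.17 to -3.02 ± 0.04 (SD, n = 3 each), a change of 2.36. These values did not overlap, and the exact two-sided permutation p was 0.1, again the smallest possible (0.2 adjusted over 4 pairs).

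Both sensor genes were called lower under ferroptotic medium. Ireb2 (ENSMUSG00000032293), for IRP2, which is controlled by its breakdown when iron is plentiful, measured 5891, 5700.3 and 5969 normalized counts under control medium and 4725, 5337 and 5102 under ferroptotic medium. The groups were separate, with ferroptotic replicate 1 the lowest. The log2 difference was -0.21 (SE 0.05, 95% interval -0.33 to -0.10, limma adjusted p = 0.00800).

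Aco1 (ENSMUSG00000028405), for IRP1, which is an aconitase when it holds an iron-sulfur cluster and binds RNA when it does not, measured 2647, 2423 and 2738 under control medium and 2309, 2318 and 2330.3 under ferroptotic medium. Control replicate 2 lay closest to the ferroptotic values. The log2 difference was -0.16 (SE 0.05, 95% interval -0.29 to -0.04, limma adjusted p = 0.0391). Over the 15 alternative settings its limma adjusted p lay between 0.0129 and 0.137. When single libraries were left out, the call was kept only without control replicate 2 and was lost without any one of the other 5. The log2 difference between Ireb2 and Aco1 was 1.17 ± 0.06 and 1.12 ± 0.09 (SD, n = 3 each; exact two-sided permutation p = 0.5 before and after adjustment), and the groups overlapped.

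**Figure D4:**
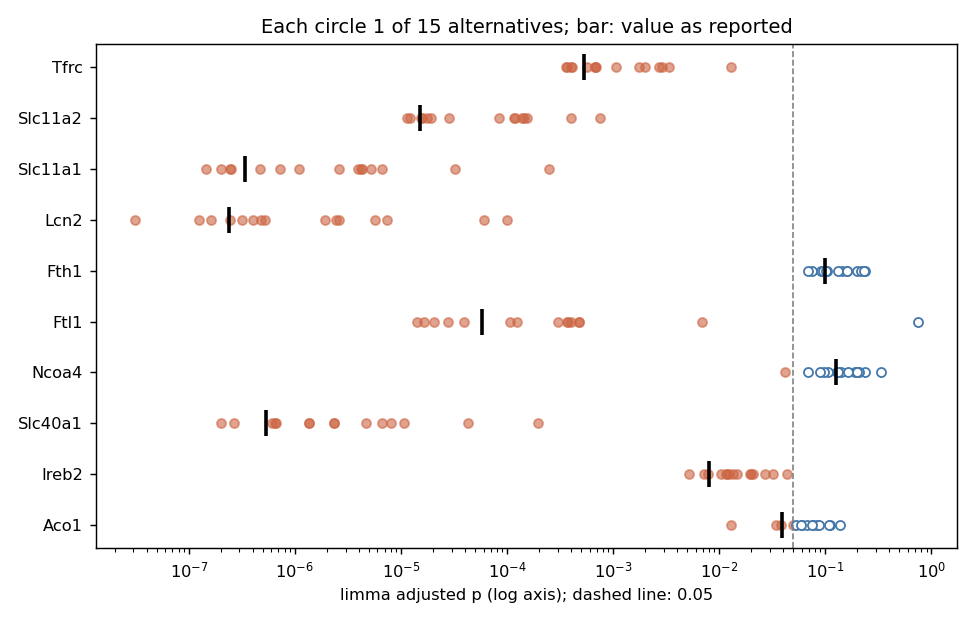
Limma adjusted p (log axis) of each iron gene under 15 alternative settings, as circles, with the reported value as a black bar; filled circles are under 0.05, the dashed line. Fth1 stays to the right of the line in all of them, Aco1 falls on both sides, and Ftl1 crosses it in 1 setting.

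Other iron handling genes were taken as a list of 49, of which 38 are in the table and 31 were tested. Of these, 20 passed (64.5%, where 42.5% of all genes tested did), 8 higher and 12 lower, where 19.7% and 22.8% of all genes were, with a median log2 difference of -0.05. The largest difference among them was that of Hmox1, for haem oxygenase 1, which releases iron from haem. Its normalized counts were 12488 ± 154 under control medium and 181437 ± 3178 under ferroptotic medium (SD, n = 3 each; log2 difference 3.86, SE 0.02, limma adjusted p = 1.00e-11).

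Among genes of haem iron and mitochondrial iron, 7 of 12 tested passed (58.3%, beside the 42.5% of all genes). The 3 higher ones were Hmox1, the lysosomal haem transporter gene Slc48a1 (1.34) and the mitochondrial iron importer gene Slc25a37 (0.81). The lower ones included the mitochondrial transporter genes Abcb8 (-0.61) and Sfxn1 (-0.21), all as log2 differences.

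In uptake and reduction, 5 of 8 tested genes passed (62.5%, beside the same 42.5%). Steap3, for the endosomal ferrireductase that works beside the transferrin receptor, fell from 595 ± 34.3 to 187 ± 29.2 normalized counts (log2 difference -1.68, SE 0.13, limma adjusted p = 1.13e-05). Lrp1, for a receptor that takes up haem bound to hemopexin, fell by 0.65 on the log2 scale. Bdh2, for an enzyme linked to a mammalian siderophore, fell from 32.5 ± 6.65 to 2.44 ± 1.52 normalized counts, a level of few reads (limma adjusted p = 0.000963). Slc22a17, for a receptor of lipocalin 2, rose from 148 ± 29.2 to 293 ± 60.1 normalized counts (0.97, SE 0.20, limma adjusted p = 0.00375), and the metal transporter gene Slc39a14 rose by 0.28. Trf (transferrin, -0.20), Slc39a8 (-0.92) and Mcoln1 (-0.03) did not pass.

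Smaller groups gave mixed directions as well. Of all genes tested 42.5% passed, 19.7% higher and 22.8% lower, and lists this short can hardly be set against those shares. In export and the hepcidin system both tested genes passed: Cp, for the ferroxidase ceruloplasmin, rose from 1013 ± 15.8 to 1571 ± 45.7 normalized counts (log2 difference 0.63, limma adjusted p = 2.99e-05), and Hfe, for a partner of the transferrin receptor, fell from 382 ± 94.7 to 191 ± 4.72 (-0.97, limma adjusted p = 0.00159). Of 5 tested genes of storage and chaperones, the iron chaperone genes Pcbp1 (-0.35) and Pcbp2 (-0.14) fell, Herc2, for a ligase that degrades NCOA4, rose (0.30), and Pcbp4 (0.13) and Havcr2 (-0.05) did not pass. Of the 4 genes of the ligase that degrades IRP2, its iron-sensing subunit gene Fbxl5 rose by 0.19, Skp1a (-0.22) and Rbx1 (-0.15) fell, and Cul1 (-0.09) did not pass (limma adjusted p = 0.121).

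**Figure D5:**
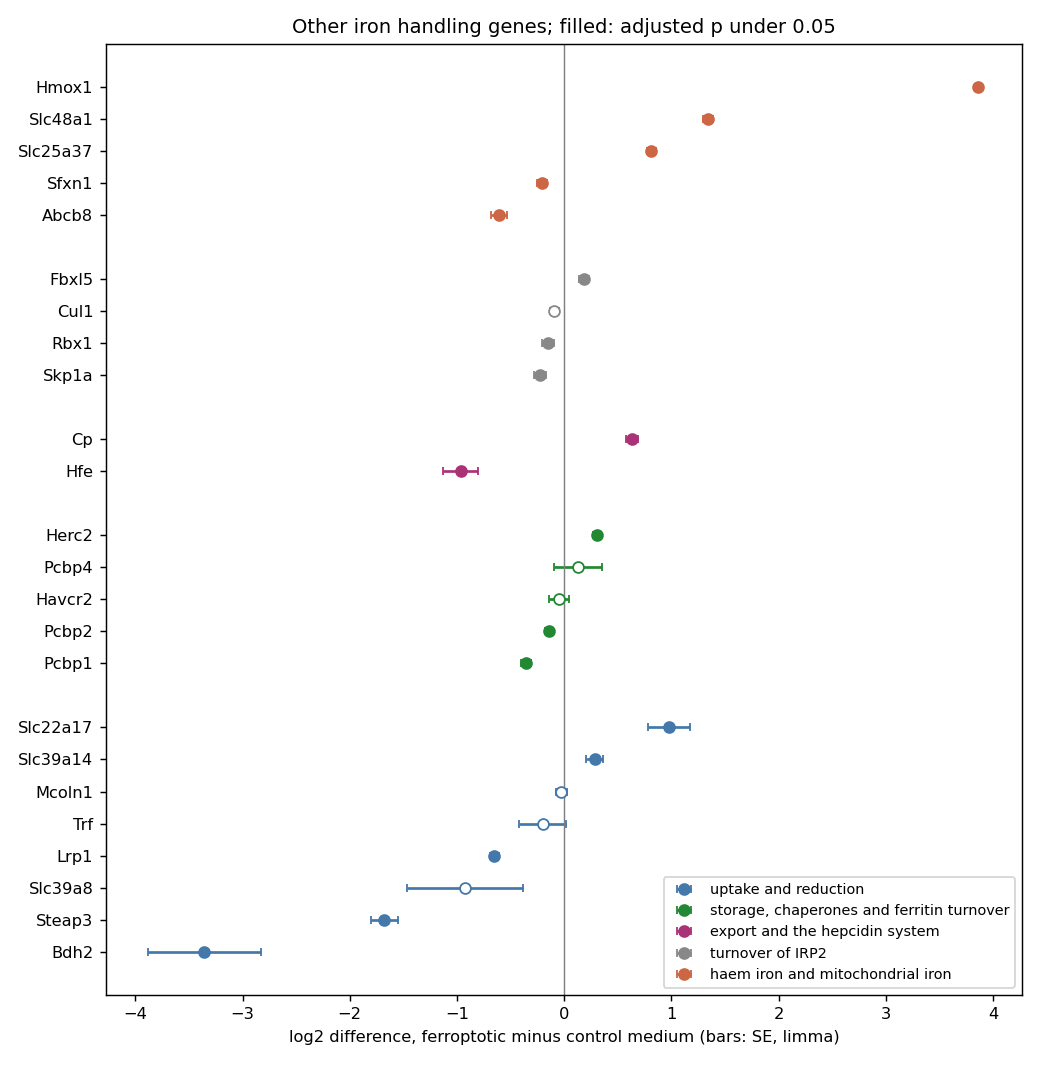
Log2 difference, ferroptotic minus control medium, of 24 tested genes of the other iron lists, those named in the text, with limma's SE as bars and colours for the lists; filled circles passed at an adjusted p under 0.05. Hmox1 (3.86) lies farthest right and Bdh2, a gene of few reads, farthest left.

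Iron-sulfur cluster assembly is a main use of cellular iron. Of its 22 genes tested, 8 passed (36.4%, where 42.5% of all genes did), with a median log2 difference of 0.05. Fdxr (0.36), Lyrm4 (0.39), Hscb (0.28) and Hspa9 (0.12), all of the mitochondrial pathway, were higher. The cytosolic assembly genes Fam96a (-0.48), Nubp1 (-0.60) and Nubp2 (-0.29) and the mitochondrial Glrx5 (-0.19) were lower. Among other mRNAs known to hold an iron-responsive element, Cdc14a did not pass (0.03, limma adjusted p = 0.783), and Alas2, Epas1 and Cdc42bpa were below the filter.

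Of 13 tested regulators known to act on one or more of these genes, 11 passed (84.6%, where 42.5% of all genes did), 9 higher and 2 lower, where 19.7% and 22.8% of all genes were. Nfkbiz, for a nuclear NF-kB cofactor known to be needed for Lcn2 induction, went from 2711 ± 82.4 to 10242 ± 127 normalized counts (log2 difference 1.92, SE 0.04, limma adjusted p = 7.19e-09). Cebpb and Cebpd each rose by 1.32 on the log2 scale. Keap1, for the adaptor that marks NRF2 for breakdown, fell by 0.65 and Tfeb, for a lysosomal transcription factor, fell by 0.43. Myc (0.18) and Mitf (-0.09) did not pass. These are mRNA levels, and the activity of the factors was not measured.

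Promoters of 8 members, the 250 bases before each RefSeq start site (GRCm38.p6), were searched on both strands for core motifs of such factors. The antioxidant response core TGACNNNGC, held by 10.2% of all 32851 promoters, was found only in 1 of 3 Ncoa4 promoters, a gene that did not pass. An NF-kB-like pattern (GGG, any 5 bases, CC), held by 45.8% of all promoters, was found in 7 of the 8 members: Lcn2, Tfrc, Fth1, Ftl1, Ireb2, Aco1 and Ncoa4, genes that rose, fell or did not pass. The hypoxia response core ACGTG, held by 16.6% of all promoters, was found in 1 of 2 Tfrc promoters and 2 of 3 Ncoa4 promoters. Slc11a1 held none of these patterns in its window. The shares are per promoter, while the 7 of 8 members are counted as genes. Fth1 and Tfrc have 2 promoters each and Ncoa4 has 3, which gives them more chances of a match. Enhancers and more distant elements lie outside these windows.

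The genes whose 6 values, taken relative to their own control mean, lay nearest to those of Slc40a1 were 2310043P16Rik, Gpat3 and Acod1, at a root mean square log2 distance of 0.0864, 0.0893 and 0.119. For Lcn2 they were Il1b, Extl1 and Il11, at 0.142, 0.153 and 0.166. For Tfrc they were Ddx3x, Orc2 and Ccdc50 (0.0125 to 0.0199), and for Ftl1 Map3k20, Kdm5a and Ppm1a (0.00421 to 0.0195). The nearest to Fth1, Zfp174, Ttll11 and Pcdhga1, were farther (0.138 to 0.152) and had group means under 100 normalized counts. Over 6 libraries in 2 groups, genes with a difference of like size are near by this measure, and nothing is said of shared control.

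Markers of other cell types moved too. Oligodendrocytes make transferrin, and 6 of their 10 listed markers are in the table used here. The summed level of these 6 was 8826 to 9386 normalized counts in control libraries and 6146 to 6359 in ferroptotic libraries. Most of it came from Mbp, which macrophages also express. Of the 5 tested, Mbp, Cnp and Cldn11 fell and Mag rose, where 22.8% of all genes tested were called lower and 19.7% higher. Mog, Mobp, Olig1 and Olig2 are not in the table used here. Astrocyte markers summed to 3362 to 3652 and 4182 to 4367, mostly from Aldoc and Gja1, which rose, while Aldh1l1 fell from 124 ± 17.2 to 79.9 ± 16.8 (limma adjusted p = 0.0325) and Gfap, at 28.4 ± 4.52 and 28.1 ± 4.86, did not pass. Fibroblast markers summed to 16.6 to 21.9 and 46.0 to 93.0. Erythroid markers, of cells with high Tfrc, summed to 49.6 to 56.8 and 32.1 to 47.9, and the tested Epor and Klf1 did not pass (limma adjusted p = 0.215 and 0.655). Macrophage markers summed to 390094 to 405761 and 391770 to 399665, with Adgre1, Tyrobp, Fcer1g and Lyz2 higher and Csf1r, Cd68 and Ctss among those lower. The part of these other cells in the iron gene differences was not tested.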

How the data were processed

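RNA of 6 microglia samples, 3 per medium, was sequenced after mRNA library preparation on an Illumina NovaSeq 6000, per the labels' protocols. The submitters' processing notes name HISAT2 2.1.0, fastp 0.17.1, R 3.4.3 and DESeq2 1.18.1, without their roles. For the genome build, annotation, counter and use of strand, the sources used here give nothing. The authors deposited log2 values per gene and library, and undoing the log, subtracting 1 and multiplying by a library's size factor (0.903 to 1.19) gives read counts: 100% of values in each library were whole reads within 0.01. Among low values 3 reads were more frequent than 2 (6101 against 5169), so these may be estimated counts rounded. The authors deposited FPKM for a shorter table of 1699 genes, with 2 members. Their deposited p-values and false discovery rates were used only for comparison.

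The deposited log2 values were tested with limma 3.58.1 (trend, robust, two-sided; R 4.3.3), and medium was the only term. SE means the moderated standard error of limma. Intervals are at 95%. Differences are on the log2(normalized count + 1) scale and understate changes of low genes. The script was tested on simulated data. Normalized counts are the deposited values with the log undone. Sequence searches used Python 3.11.15. GENCODE M21 holds 26051 (99.8%) of the gene IDs. Its genome build may not be the authors', and it served only for sequences, overlaps and positions. Replicate pairs differed by more than sampling noise (chi-square per degree of freedom 15.3 to 21.3). Older symbols were matched through RefSeq (Tf stands as Trf). Slc40a1 and Slc11a2 had no promoter entry, and protein sequences were not used here.

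The members, the lists and the tests were chosen with earlier results of these data known. Named genes were all members, up to 4 called genes of each list with the smallest p, all where 5 or fewer are counted, and the 3 genes nearest in pattern to 5 members; some genes under this rule are not reported here. The search for iron-responsive elements and the ferritin copies were added after the data were seen. Alternatives were other filters, pseudocount and scaling, limma-voom on the whole reads, limma without trend, a replicate block, and leaving out each library.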

Additional observations from a re-analysis of the deposited data

How the results depend on the processing

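Over 15 alternatives the number of members that passed was 7 or 8, with 5 higher in each and 2 or 3 lower. The share of all genes that passed moved with the filter. As reported, 6629 of 15597 passed. Without a filter on low values 6417 of 26096 passed, and with at least 100 normalized counts 6228 of 11595 did. Lcn2, Slc40a1, Slc11a1, Slc11a2, Tfrc and Ireb2 kept direction and call in all 15, with limma adjusted p at most 0.0434 (Ireb2). Ftl1 kept them in 14 and turned to -0.033 with quantile normalization, and the cause was not tested. Aco1 lost its call in 11, Ncoa4 gained one in 1 (quantile normalization, 0.19, limma adjusted p = 0.0416), and Fth1 stayed above the threshold in all 15 (0.0694 to 0.237). Of the other iron handling genes 17 to 21 passed, beside 20 of 31 tested as reported. Of the iron-sulfur genes 6 to 10 passed, beside 8 of 22 tested as reported. The replicate numbers are shared by the groups, and whether they pair the samples is not known. Deviations of same-numbered libraries correlated at 0.01, -0.02 and -0.04 over the genes tested, which cannot exclude a pairing that affects few genes. With a replicate block 7 members passed, Aco1 being the one lost (limma adjusted p = 0.0593), and 6226 of all genes in place of 6629. No member had fewer than 467 reads in a library. The intervals rest on limma's moderated SE, which combines the spread between the 3 libraries per group with that of other genes.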
